A study of Mus musculus with 12 samples.

Results

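Aminoacyl-tRNA synthetases are the enzymes that join each amino acid to its transfer RNA, the step that supplies the ribosome with building blocks. The 37 synthetase genes described here were taken by gene symbol from the 54532 genes of the count table, by a rule that uses no measured value, although the family was picked with earlier results of these data known. They comprised 21 genes for cytosolic enzymes and 16 for mitochondrial enzymes, and all 37 were among the 14894 genes that passed the filter on low counts. The mitochondrial genes carry symbols ending in 2. Tarsl2, whose symbol also ends in 2, encodes a cytosolic threonyl-tRNA synthetase and was counted as cytosolic, and Gars and Kars each make both the cytosolic and the mitochondrial enzyme from a single gene and were also counted as cytosolic.

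Marrow cells from C57BL/6 mice of WT genotype were cultured for 5 days with GM-CSF and IL-6, a mix that drives marrow cells toward immunosuppressive myeloid cells. The cultures received DMSO vehicle at 0.1%, or indole-3-propionic acid (IPA), a tryptophan metabolite of gut bacteria, at 10 µM or 50 µM, with 4 libraries per group. GM-CSF and IL-6 were present in every group, so vehicle was not an unstimulated control. The lower dose was chosen as a physiological level and the higher as one above it, at which the study saw reduced cell viability. Nothing in the labels says whether the 4 libraries of a group came from separate mice or cultures, so p-values measure the spread between these libraries, which may be technical. Each library held 20451312 to 28038612 counts assigned to genes, and the synthetases took 92 to 11823 counts each in a library.

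Most synthetase genes exist as partners, a cytosolic enzyme and a separate nuclear-encoded enzyme that is imported into mitochondria for the same amino acid. Several cytosolic synthetases are bound together in the multisynthetase complex, held by the scaffold proteins Aimp1, Aimp2 and Eef1e1. When uncharged transfer RNA accumulates or protein folding fails, the integrated stress response phosphorylates the initiation factor eIF2, translation of the transcription factor ATF4 goes up, and ATF4 is known to raise genes of amino acid synthesis, amino acid import and a subset of the cytosolic synthetases.

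In vehicle cultures the cytosolic synthetases were far more abundant than the mitochondrial ones on a per-length scale. Normalised counts scaled to library size (CPM) per kb of exon had a median of 27.3 over the 21 cytosolic genes and of 2.35 over the 16 mitochondrial genes. Gars, for glycine, at 64.5 ± 5.70 CPM per kb (SD, n = 4) and Nars, for asparagine, at 61.7 ± 3.51 stood highest and did not differ beyond their spread. Cars, for cysteine, at 7.57 ± 0.367 was the lowest cytosolic gene apart from Tarsl2 at 1.60 ± 0.149. Iars2, for isoleucine, at 10.6 ± 0.217 and Rars2, for arginine, at 9.59 ± 1.2 lay just above Cars, and Wars2, for tryptophan, at 0.854 ± 0.0842 was the lowest of all 37. Lars2, the mitochondrial leucyl-tRNA synthetase, departed from its class at 33.3 ± 7.02 CPM per kb, within the cytosolic range. Its CPM was 307, 301, 458 and 409.6 in the 4 vehicle libraries, a spread that covered the 10 µM mean of 324 ± 72.0 and the 50 µM mean of 342 ± 62.2. Without Lars2 the median of the other 15 mitochondrial genes was 2.29 CPM per kb. Exon length here was the union over all annotated transcripts. Per kb of the principal transcript the medians were 39.3 and 5.49 CPM, and Nars at 97.9 stood above Lars2 at 94.7 and Gars at 84.6.

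**Figure D1:**
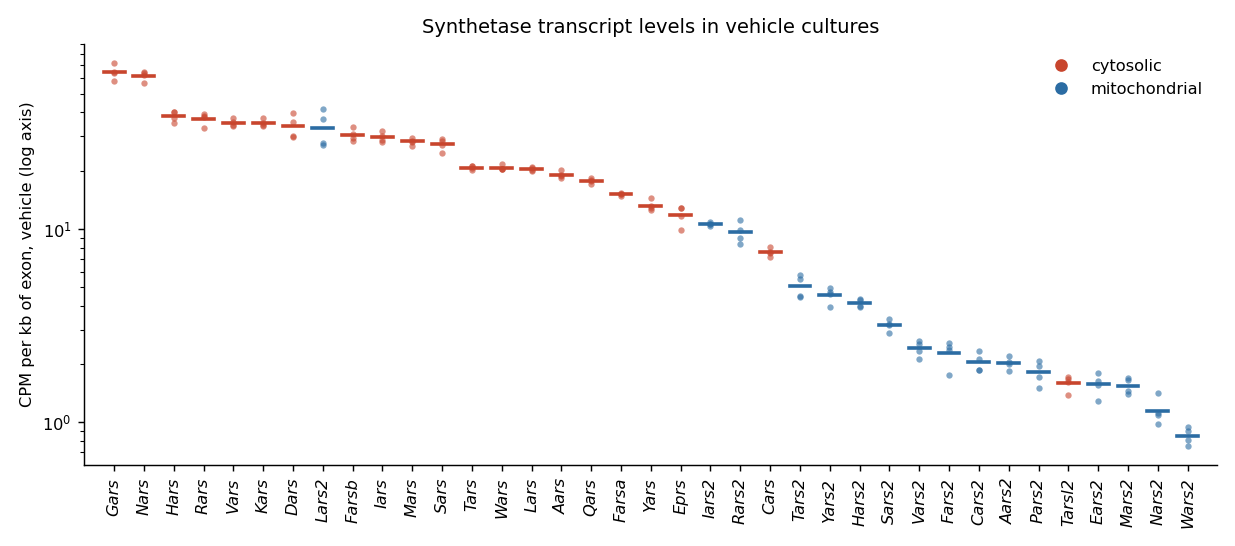
Transcript level of each of the 37 synthetases in vehicle cultures, as CPM per kb of exon on a log axis; points are the 4 libraries and lines are means, red for cytosolic and blue for mitochondrial genes. Cytosolic genes fill the upper range, with Tarsl2 low and Lars2 the mitochondrial gene placed among them.

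At 10 µM IPA no synthetase passed the test. edgeR's quasi-likelihood test (p-values adjusted by the Benjamini-Hochberg method over the whole table) called 0 of 37, the smallest adjusted p was 0.622, and 0 of 37 had an unadjusted p under 0.05. DESeq2 and limma-voom also called 0 of 37. The background in this comparison was low, with 61 of 14894 genes (0.410%) called in either direction. The median log2 fold change was -0.02 for the cytosolic and -0.02 for the mitochondrial genes, against -0.01 over all genes. Without 1 library the cytosolic median ran from -0.05 (without vehicle replicate 2) to 0.01 (without vehicle replicate 4), and the mitochondrial median from -0.05 (without 10 µM replicate 1) to -0.0039 (without 10 µM replicate 4). Single genes ranged from -0.21 for Vars2 to 0.14 for Sars. Vars, the cytosolic valyl-tRNA synthetase, was the only member whose libraries did not overlap between 10 µM IPA and vehicle (6.13% of all genes were separated in this way, in either direction). Vars CPM was 210.4, 199, 191 and 192 in vehicle and 183, 185, 187 and 177 at 10 µM, a log2 fold change of -0.11 ± 0.06 (SE) with an adjusted p of 0.625.

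At 50 µM IPA 8 of the 37 synthetases rose against vehicle and 0 fell. The 8 were Sars, Wars, Cars, Aars, Gars, Mars and Yars, the cytosolic enzymes for serine, tryptophan, cysteine, alanine, glycine, methionine and tyrosine, and Hars2, the mitochondrial enzyme for histidine. Thus 7 of 21 cytosolic and 1 of 16 mitochondrial genes were called higher, where 7.00% of all genes were called higher and 6.50% lower. The classes differed in depth, with a median in vehicle of 120 CPM over the cytosolic and 13.7 CPM over the mitochondrial genes. Changes of the same size are harder to call at low counts, so these counts are not on equal terms. For example, Nars2 at 0.32 ± 0.15 (SE) was not called and Yars at 0.27 ± 0.07 was. The part of depth in the counts was not tested. The median log2 fold change was 0.12 for the cytosolic and 0.03 for the mitochondrial genes, and 0.01 over all genes tested. The cytosolic median was 0.07 without vehicle replicate 2, and the mitochondrial median was near 0 throughout, from -0.01 without vehicle replicate 1 to 0.06 without vehicle replicate 4. The 50 µM and vehicle libraries did not overlap, with 50 µM above, for 8 cytosolic genes and 1 mitochondrial gene (9.45% of all genes), and no synthetase was separated downward (10.5% of all genes). All of the rises were under 1.5-fold. In bulk RNA a change in the number of cells of a type and a change in RNA per cell cannot be told apart.

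**Figure D2:**
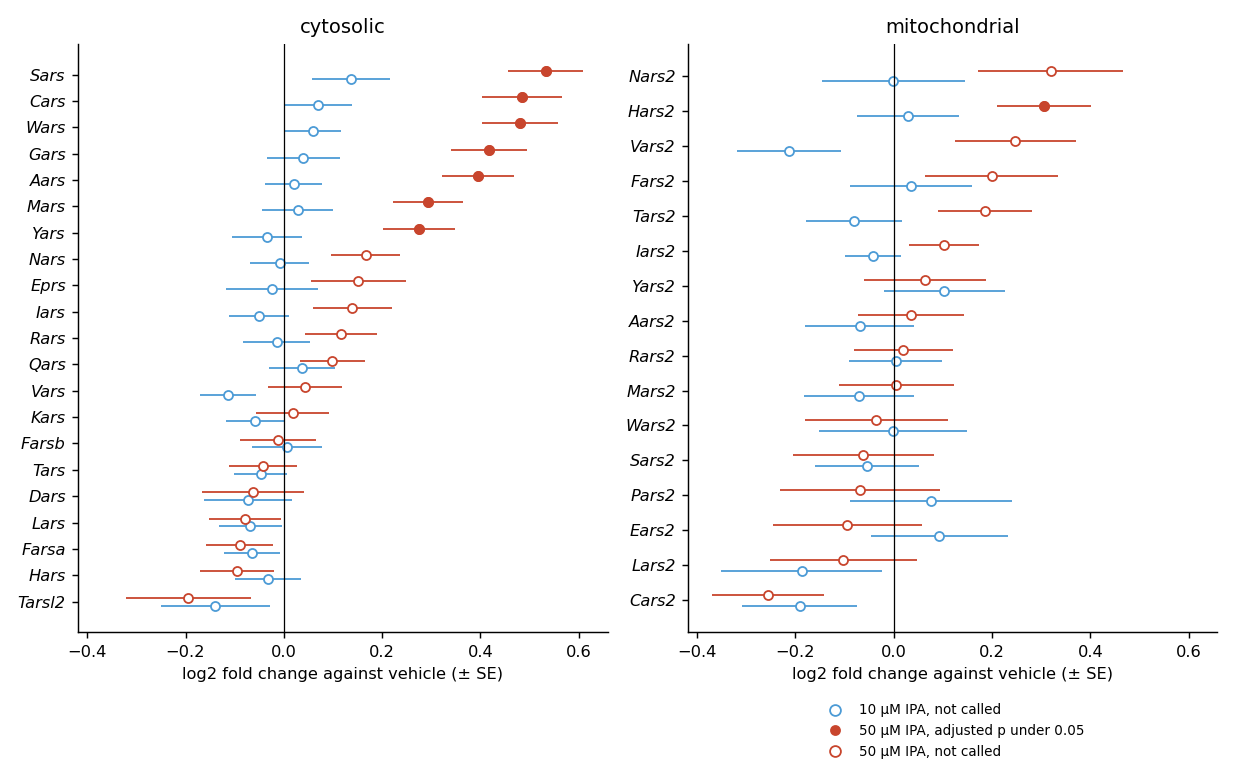
Log2 fold change against vehicle (± SE) of the 21 cytosolic and 16 mitochondrial synthetases at 10 µM (blue) and 50 µM (red) IPA; filled points passed an adjusted p of 0.05. At 10 µM no point is filled, and at 50 µM the filled points are Sars, Cars, Wars, Gars, Aars, Mars and Yars on the left and Hars2 on the right.

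Sars had the largest log2 fold change of the 37 genes against vehicle at 50 µM. Its CPM was 139, 127, 145 and 151 in the vehicle libraries, 161, 169, 149.8 and 138 at 10 µM and 194, 197, 219 and 198 at 50 µM. The 50 µM libraries all lay above the others, and the log2 fold change against vehicle was 0.53 ± 0.08 (SE, adjusted p = 0.000588 by edgeR). Wars, an enzyme known for being induced by interferon-gamma as well as for its charging role, had 70.2, 74.4, 70.3 and 70.0 CPM in vehicle, 76.1, 75.8, 72.6 and 72.1 at 10 µM and 98.0, 108, 87.2 and 102 at 50 µM. These 50 µM values were again above every other library, with a log2 fold change of 0.48 ± 0.08 (adjusted p = 0.0012). The vehicle libraries of Wars were close together, from 70.0 to 74.4 CPM, whereas its 50 µM libraries spread from 87.2 to 108 CPM. Cars CPM was 52.9, 49.3, 50.1 and 47.0 in vehicle, 49.7, 49.6, 55.6 and 54.1 at 10 µM and 63.6, 66.6, 68.7 and 78.5 at 50 µM. The groups were separated in the same way, and the log2 fold change was 0.48 ± 0.08 (adjusted p = 0.00182).

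Gars and Aars rose to a like degree. Gars CPM was 201, 180.4, 199.6 and 224 in vehicle, 219, 211, 204 and 193 at 10 µM and 257, 265, 266 and 281 at 50 µM. No vehicle or 10 µM library reached the lowest 50 µM library, and the log2 fold change against vehicle was 0.42 ± 0.08 (adjusted p = 0.00339). Aars CPM was 186, 173, 170.3 and 175 in vehicle, 183, 181, 169 and 182 at 10 µM and 238, 231, 207 and 247 at 50 µM. Its lowest 50 µM library was still above the highest vehicle library, and the log2 fold change was 0.39 ± 0.07 (adjusted p = 0.00318). Sars, Wars, Cars, Aars and Gars kept an adjusted p under 0.05 in each of the 8 fits that left out a single library.

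Mars and Yars rose by less. Mars, whose product sits in the multisynthetase complex and also charges the initiator transfer RNA, had 97.5, 91.8, 96.3 and 101 CPM in vehicle, 101, 109, 92.9 and 91.2 at 10 µM and 113, 114, 119 and 127 at 50 µM. The groups did not overlap, and the log2 fold change against vehicle was 0.29 ± 0.07 (adjusted p = 0.0147). The call for Mars was lost without vehicle replicate 3 (adjusted p = 0.0513) and without 50 µM replicate 4 (adjusted p = 0.0532). Yars CPM was 74.6, 75.7, 77.6 and 85.3 in vehicle, 78.0, 81.2, 69.5 and 77.3 at 10 µM and 90.5, 95.2, 91.4 and 99.9 at 50 µM. Again the 50 µM libraries lay above all others, with a log2 fold change of 0.27 ± 0.07 (adjusted p = 0.0247). The call for Yars was lost without any of 5 libraries, namely vehicle replicates 1, 2 and 3 and 50 µM replicates 2 and 4, with adjusted p up to 0.0832.

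**Figure D3:**
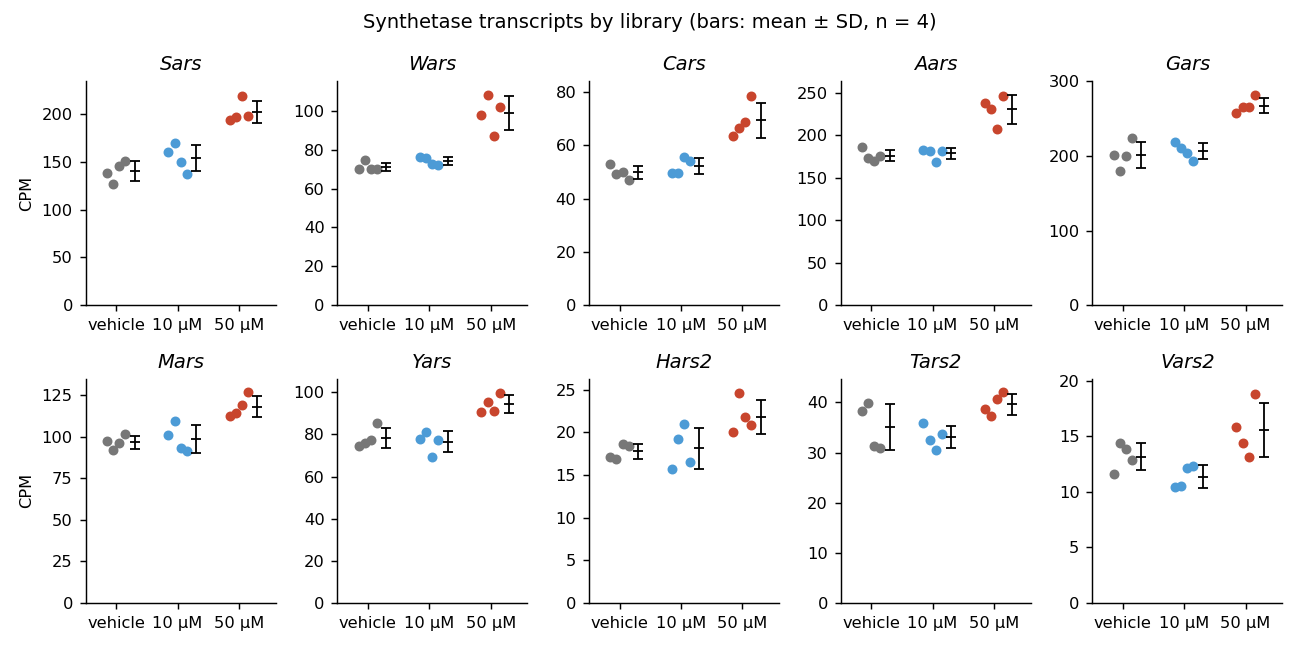
CPM by library (points, 4 per group) of 10 synthetases, with mean ± SD beside each group and each axis starting at 0. In Sars, Wars, Cars, Aars, Gars, Mars and Yars the 50 µM points lie above every vehicle and 10 µM point, while in Hars2, Tars2 and Vars2 the 50 µM points overlap those of another group.

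The genes lie on 7 chromosomes and share no cluster. On the GRCm38 assembly, GENCODE places Sars at chr3:108424865-108445209 (minus strand), Wars at chr12:108860030-108894174 (minus strand), Cars at chr7:143557230-143600090 (minus strand), Aars at chr8:111033144-111057664 (plus strand), Gars at chr6:55038007-55079500 (plus strand), Mars at chr10:127296221-127311786 (minus strand) and Yars at chr4:129189760-129219607 (plus strand). Mars shares 68 exon bases (1.99% of its exon length) with Ddit3 on the opposite strand, the gene of the stress-induced factor CHOP, which rose by 0.99 on the log2 scale at 50 µM (adjusted p = 0.00199). Yars shares 30 exon bases with C77080 on the opposite strand, which also rose (log2 fold change 0.72, adjusted p = 0.00523). Aars contains on its own strand 1326 exon bases (14.3%) of Exosc6, which was listed at 0 in every library. The library kit keeps strand, but the strand setting of the read counting was not given in the sources used here.

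For the sequence of their promoters, RefSeq windows on GRCm38 from 250 bases before to 50 bases after a start site were used for 27 of the 37 genes, and those of Aars, Cars, Wars and 7 others were not analysed here. Each window was searched on both strands for TGATGNAA, the core of the composite element to which ATF4 binds together with a C/EBP partner, where N is any base. The motif was in the windows of 4 genes, Gars, Iars, Tars and Yars. These are 4 of 13 cytosolic and 0 of 14 mitochondrial genes with a window, and 4.51% of all 27025 genes with a window held the motif. Among the genes called at 50 µM with a window it was in 2 of 4 (Gars and Yars, not Sars or Mars), and among those not called in 2 of 23. Stretches around each match are printed 5′ to 3′ on the strand of the gene, with the match in capitals, to show its letters and setting in each gene. Each match except that of Yars reads as the reverse complement of the searched letters.
Gars, chr6:55037935-55038000 (plus strand): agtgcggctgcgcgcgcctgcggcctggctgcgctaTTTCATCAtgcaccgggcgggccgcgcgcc
Yars, chr4:129189895-129189924 (plus strand): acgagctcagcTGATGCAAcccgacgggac
Iars, chr13:49682126-49682155 (plus strand): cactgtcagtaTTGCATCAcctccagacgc
Tars, chr15:11399659-11399709 (minus strand): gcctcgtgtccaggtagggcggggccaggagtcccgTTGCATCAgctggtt
The first base of the match lay at position -30 from the RefSeq start site in Gars, 3 in Yars, 7 in Iars and -15 in Tars, with the start site itself as position 0. Iars and Tars hold the same 8 letters, TTGCATCA, and their log2 fold changes at 50 µM were 0.14 ± 0.08 (adjusted p = 0.284) and -0.04 ± 0.07 (adjusted p = 0.746). A match of letters is a description and is not evidence that a factor binds there.

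The cytosolic genes that rose fell within a set of 13 synthetases that general knowledge lists as ATF4 targets (Aars, Cars, Eprs, Gars, Iars, Lars, Mars, Nars, Sars, Tars, Vars, Wars and Yars). This list was drawn up with earlier results of these data known and gives no independent support. At 50 µM 7 of the 13 were called higher (median log2 fold change 0.27), and 0 of the other 8 cytosolic genes (Dars, Farsa, Farsb, Hars, Kars, Qars, Rars and Tarsl2) were called (median -0.04), where 7.00% of all genes were called higher and 6.50% lower, and the difference between the classes was not tested. Values of the 8 ran from -0.19 for Tarsl2 to 0.12 for Rars, none had an unadjusted p under 0.05, and DESeq2 and limma-voom also called 0 of them. Averaged over the 13 genes in each library, log2 CPM stood 0.15 to 0.32 above the vehicle mean at 50 µM, between -0.02 and 0.04 at 10 µM and between -0.05 and 0.04 in vehicle. The lowest of the 50 µM values was replicate 3. Over the other 8 cytosolic genes the 50 µM libraries lay between -0.06 and -0.02, inside the vehicle range of -0.08 to 0.09.

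**Figure D4:**
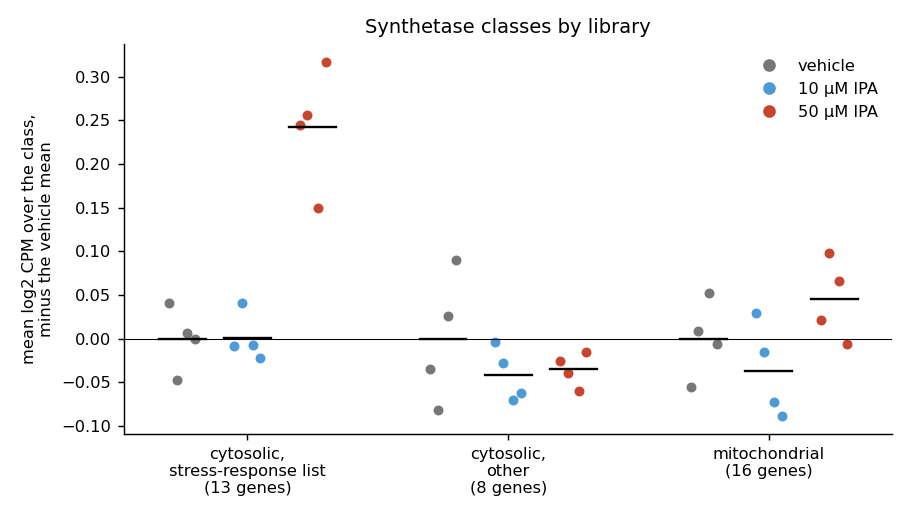
Mean log2 CPM over 3 classes of synthetases in each library, minus the vehicle mean; points are libraries and lines are group means, with grey for vehicle, blue for 10 µM and red for 50 µM IPA. Over the 13 genes of the stress-response list the 50 µM points lie at 0.15 to 0.32, and over the other 8 cytosolic and the 16 mitochondrial genes the groups overlap.

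Within the list, 6 genes did not pass the test at 50 µM. Nars came nearest, with CPM of 279.8, 247, 270.1 and 279 in vehicle and 295, 309, 285 and 311 at 50 µM. Those libraries did not overlap, and the log2 fold change was 0.17 ± 0.07 (adjusted p = 0.139). Eprs, the fused enzyme for glutamate and proline, had a log2 fold change of 0.15 ± 0.10 (adjusted p = 0.342), and Vars of 0.04 ± 0.08 (adjusted p = 0.763). Lars, for leucine, had -0.08 ± 0.07 (adjusted p = 0.526). Of the 8 members of the multisynthetase complex 1 was called (Mars), and of the 13 cytosolic genes outside it 6 were called, where 7.00% of all genes were called higher. The difference between these counts was not tested. By the structural class of the catalytic domain, the called cytosolic genes included 4 of 9 class I enzymes (Cars, Mars, Wars and Yars) and 3 of 11 class II enzymes (Aars, Gars and Sars), where Eprs holds both classes and was left out of this count. These counts were not tested against each other either.

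Among the mitochondrial synthetases at 50 µM, Hars2 alone was called against vehicle, at the edge of the threshold. Hars2 CPM was 17.1, 16.8, 18.7 and 18.4 in vehicle, 15.7, 19.3, 20.9 and 16.5 at 10 µM and 19.97, 24.6, 21.8 and 20.8 at 50 µM. The 50 µM libraries lay above all vehicle libraries and overlapped those of 10 µM, with a log2 fold change against vehicle of 0.31 ± 0.10 (adjusted p = 0.0496). The call was lost in 5 of 8 other analyses (adjusted p up to 0.0955) and in 7 of 8 fits that left out a library, all but the fit without vehicle replicate 4. Hars2 and Hars lie head to head on chromosome 18 and share 195 exon bases on opposite strands, and Hars, the cytosolic partner, had a log2 fold change of -0.09 ± 0.08 (adjusted p = 0.454). Nars2 had the highest point value of the class, 0.32 ± 0.15, and Cars2 the lowest, -0.26 ± 0.11, with adjusted p of 0.178 and 0.161.

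The mitochondrial partners of Sars, Wars, Cars, Aars and Mars did not pass the test at either dose. Sars2 CPM was 10.7, 10.6, 9.58 and 11.3 in vehicle, 10.3, 9.73, 9.25 and 11.4 at 10 µM and 11.5, 11.9, 7.62 and 9.15 at 50 µM. Wars2 CPM was 5.37, 4.49, 5.60 and 4.85 in vehicle, 6.01, 5.03, 4.96 and 4.21 at 10 µM and 4.69, 5.31, 4.75 and 4.91 at 50 µM. In both the 3 groups overlapped, with log2 fold changes at 50 µM of -0.06 ± 0.14 and -0.04 ± 0.15. Cars2 CPM was 13.5, 16.9, 15.4 and 13.5 in vehicle, 14.0, 11.3, 11.9 and 14.6 at 10 µM and 12.3, 14.1, 11.6 and 11.4 at 50 µM. Aars2 CPM was 9.83, 10.5, 8.82 and 9.54 in vehicle, 8.51, 8.47, 9.66 and 10.3 at 10 µM and 9.62, 10.0, 9.51 and 10.3 at 50 µM, and its log2 fold change at 50 µM was 0.04 ± 0.11. Here too the groups overlapped, although the point value of Cars2 was below 0. Mars2 CPM was 15.9, 18.6, 19.1 and 16.4 in vehicle, 18.0, 18.3, 13.7 and 16.7 at 10 µM and 19.4, 19.9, 15.4 and 15.1 at 50 µM, with a log2 fold change of 0.01 ± 0.12 at 50 µM. At 50 µM these 5 partners had adjusted p between 0.161 and 0.983 by edgeR, which does not show that they did not change. At 10 µM the partners ranged from -0.19 for Cars2 to -0.002 for Wars2.

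The balance within a pair was followed as the log2 ratio of cytosolic to mitochondrial CPM in each library, for 16 pairs, of which those of Ears2 and Pars2 share the cytosolic gene Eprs. At 50 µM the mean ratio was above the vehicle mean in 11 pairs and below it in 5, with a median change of 0.16, and at 10 µM it was above in 8 and below in 8, with a median change of 0.01. The largest shift was for cysteine, where the log2 ratio of Cars to Cars2 was 1.76 ± 0.18 (SD, n = 4) in vehicle, 2.02 ± 0.19 at 10 µM and 2.49 ± 0.24 at 50 µM. Both genes entered this shift, with log2 fold changes at 50 µM of 0.48 for Cars, which was called, and -0.26 for Cars2, which was not. For serine the ratio was 3.73 ± 0.14 in vehicle and 4.35 ± 0.37 at 50 µM, for tryptophan 3.82 ± 0.18 and 4.33 ± 0.09, and for alanine 4.19 ± 0.10 and 4.54 ± 0.08. In these 4 pairs every 50 µM library lay above every vehicle library, and among single genes 9.45% of all tested were separated upward and 10.5% downward. Histidine went the other way, with 2.40 ± 0.10 for Hars to Hars2 in vehicle and 2.00 ± 0.14 at 50 µM, also without overlap. No test was run on the ratios, and at 10 µM no pair was separated from vehicle.

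**Figure D5:**
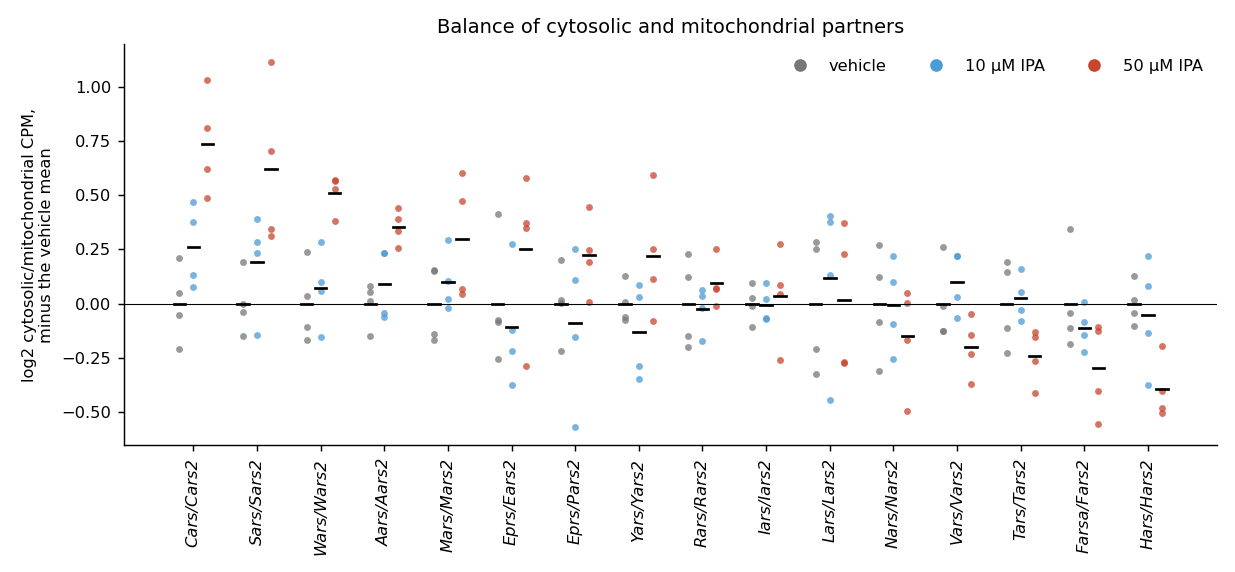
Log2 ratio of cytosolic to mitochondrial CPM for 16 pairs of partners, minus the vehicle mean of the pair; points are libraries (grey vehicle, blue 10 µM, red 50 µM) and bars are group means. The red points of cysteine, serine, tryptophan and alanine lie above the grey points, and those of histidine below.

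The doses were also compared directly, with 50 µM libraries shared with the comparison above. Against 10 µM IPA 9 of 37 synthetases were higher at 50 µM and 0 lower, where 7.52% of all genes were called higher and 7.85% lower. The 9 were Sars, Wars, Cars, Aars, Gars, Mars and Yars, plus the mitochondrial Tars2 and Vars2, for threonine and valine. The median log2 fold change was 0.15 for cytosolic and 0.08 for mitochondrial genes, and 0.01 over all genes. The mitochondrial median was 0.03 without 10 µM replicate 3 and -0.000786 without 50 µM replicate 2. Log2 fold changes between the doses were 0.42 ± 0.07 (SE) for Wars, 0.41 ± 0.08 for Cars, 0.39 ± 0.07 for Sars, 0.37 ± 0.06 for Gars, 0.37 ± 0.07 for Aars, 0.31 ± 0.07 for Yars and 0.26 ± 0.07 for Mars. Without 50 µM replicate 3 the count of cytosolic genes called was 11 in place of 7, Nars and Vars among those added, and Mars lost its call without 10 µM replicates 3 or 4 or 50 µM replicate 4. Nars itself missed the threshold with all libraries (log2 fold change 0.17 ± 0.06, adjusted p = 0.0522 by edgeR), but was called in 4 of 8 other analyses, DESeq2 and limma-voom among them, and over the 8 its adjusted p ran from 0.0149 to 0.117.

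Vars2 and Tars2 were called between the doses and not against vehicle. Vars2 CPM was 11.6, 14.4, 13.8 and 12.8 in vehicle, 10.4, 10.5, 12.2 and 12.3 at 10 µM and 15.8, 14.4, 13.1 and 18.8 at 50 µM, so that every 50 µM library was above the 10 µM libraries and the vehicle libraries overlapped both groups. Its log2 fold change was 0.46 ± 0.12 from 10 to 50 µM (adjusted p = 0.0186), 0.25 ± 0.12 from vehicle to 50 µM (adjusted p = 0.212) and -0.21 ± 0.11 from vehicle to 10 µM (adjusted p = 0.622). Tars2 CPM was 38.2, 39.8, 31.3 and 30.9 in vehicle, 35.8, 32.5, 30.5 and 33.8 at 10 µM and 38.7, 37.3, 40.7 and 42.0 at 50 µM. The log2 fold change of Tars2 between the doses was 0.26 ± 0.08 (adjusted p = 0.0303), and against vehicle, whose libraries 1 and 2 overlapped the 50 µM values, it was 0.19 ± 0.10 (adjusted p = 0.226). The Vars2 call was lost without 10 µM replicate 2 (adjusted p = 0.0609) or 50 µM replicate 4 (adjusted p = 0.0735), and the Tars2 call without 10 µM replicates 2 or 3, without 50 µM replicates 3 or 4, and in the fit of all 12 libraries.

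Genes that work beside the synthetases were read against the same background at 50 µM, 7.00% of all genes called higher and 6.50% lower, and no list among them was tested against it. The 3 scaffold genes of the multisynthetase complex had 0 of 3 called at 50 µM by edgeR, DESeq2 or limma-voom, and 0 with an unadjusted p under 0.05, with log2 fold changes of 0.17 ± 0.09 for Aimp1, 0.10 ± 0.12 for Eef1e1 and -0.09 ± 0.15 for Aimp2. Of 11 genes for editing of mischarged transfer RNA, its export or indirect charging, 0 were called against vehicle by edgeR or DESeq2, 2 had an unadjusted p under 0.05, and 10 had a log2 fold change above 0 (median 0.17). Qrsl1, a subunit of the enzyme that makes mitochondrial glutaminyl-tRNA, was called between the doses (log2 fold change 0.32 ± 0.10, adjusted p = 0.0471). Cytosolic translation factors had 1 of 23 called higher, Eif2s2, the beta subunit of eIF2, with a log2 fold change of 0.32 ± 0.08 (adjusted p = 0.0223), and a median of 0.01 over the list, and 6 of the 23 had an unadjusted p under 0.05. Of 9 mitochondrial translation factors 0 were called by edgeR or DESeq2 (median 0.08, 1 with an unadjusted p under 0.05), and of 77 mitochondrial ribosomal proteins 1 was called by edgeR, Mrps10, and 3 by DESeq2, with 12 at an unadjusted p under 0.05, 58 above 0 and a median of 0.07.

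The genes of the integrated stress response had 20 of 30 called higher at 50 µM and 2 lower (median log2 fold change 0.52). Over all genes 7.00% were called higher and 6.50% lower. The list was chosen with earlier results known. Its leading genes by adjusted p were Cth, the last enzyme of transsulfuration, with a log2 fold change of 4.38 ± 0.23, Pck2, the mitochondrial phosphoenolpyruvate carboxykinase, with 1.46 ± 0.11, Aldh1l2, a mitochondrial folate enzyme, with 3.11 ± 0.28, and Mthfd2, another, with 0.73 ± 0.08. Cth and Aldh1l2 started low, at 1.39 and 0.836 CPM in vehicle, whereas Pck2 stood at 31.1 and Mthfd2 at 113 CPM. Atf4 transcript itself rose from 282 ± 5.73 to 397 ± 38.1 CPM (SD, n = 4), a log2 fold change of 0.50 ± 0.08. Set beside these, the synthetases that rose moved by 0.27 to 0.53 on the log2 scale. The 2 lower genes were Eif2ak1 and Eif2ak3, which encode the eIF2 kinases HRI and PERK, and Eif2ak4, encoding GCN2, the kinase that senses uncharged transfer RNA, had 0.15 ± 0.15 (adjusted p = 0.553). At 10 µM 0 of the 30 were called by edgeR, 0 by limma-voom and 1 by DESeq2, with 4 at an unadjusted p under 0.05 and a median of -0.01.

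Markers of cell types and of division moved at 50 µM as well, and their part in the synthetase values was not tested. Against vehicle, 7.00% of all genes were called higher and 6.50% lower. None of the markers was at 0 in all libraries. Summed CPM over 12 neutrophil genes ranged from 18513 to 26132 in vehicle and from 13758 to 18756 at 50 µM (6 lower and 1 higher of 12), and over 6 monocyte genes from 2687 to 3423 and from 2417 to 3120 (3 lower of 6). Macrophage genes kept a like sum, 1736 to 1944 in vehicle and 1760 to 1882 at 50 µM, with 2 higher and 3 lower of 10. B cell genes were few in CPM, at 19.1 to 27.2 in vehicle and 37.9 to 60.9 at 50 µM, with 5 of 6 higher. Of 12 cell cycle genes 7 were lower, with summed CPM of 2543 to 3233 in vehicle and 2271 to 2493 at 50 µM. Of the other lists, dendritic genes had 3 of 7 higher, mast cell and basophil genes 1 higher and 1 lower of 6, erythroid genes 1 lower of 2 tested, and T and NK cell genes 0 of 3 tested, with 0 by DESeq2 and 0 at an unadjusted p under 0.05. At 10 µM the sums were 2080 to 2284 CPM for macrophage and 3837 to 4923 for monocyte genes, above both other groups. From 10 to 50 µM, 7 of 10 macrophage genes were lower and 1 higher, and 5 of 6 monocyte and 7 of 12 cell cycle genes were lower. Neutrophil genes had 7 of 12 lower and 1 higher, and B cell genes 5 of 6 higher. Over all genes 7.52% were called higher and 7.85% lower between the doses.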

How the data were processed

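RNA of cultured bone marrow cells was made into 12 libraries with a stranded mRNA kit and sequenced. The authors trimmed the reads, aligned them to mm10 with HISAT2 (2.2.1) and deposited raw counts per gene from featureCounts (2.0.1). Whether they counted by strand was not given in the sources used here.

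Groups followed the labels, and the third 10 µM library was told apart by its library name. Genes were tested if their CPM passed 0.5 in 2 or more of the 12 libraries (14894 of 54532). Each comparison used its 8 libraries, edgeR (4.0.16) with TMM scaling and the quasi-likelihood test, two-sided, without a replicate block, and Benjamini-Hochberg adjustment over all genes tested. A gene was called at an adjusted p under 0.05. SE is the log2 fold change divided by the square root of the F statistic. CPM used TMM scaling over all 12 libraries, and lengths came from GENCODE M21. DESeq2 (1.42.0), limma-voom (limma 3.58.1), other scaling and filters and leaving out each library were alternatives.

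On counts simulated for 50 µM against vehicle, 200 of 14894 genes were changed. edgeR found 9 of the 200 at a change of 0.3 on the log2 scale, 121 at 0.5 and 183 at 1. In the data 1042 genes were called higher and 968 lower, so the adjusted threshold was stricter in the simulation than in the data. These shares therefore do not carry over to the synthetases. Mars, Yars and Hars2 were called at 0.29, 0.27 and 0.31, and Nars2 was not called at 0.32. The pairs of libraries within a group all differed beyond sampling noise (chi-square per degree of freedom of at least 5.01). The members and gene lists were chosen with earlier results of these data known. Values by library are given for members called against vehicle and for the mitochondrial partners of the leading ones, and Nars, Vars, Tars2, Vars2 and Lars2 were added after their values were seen. The promoter window of Aars is not reported here.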

Additional observations from a re-analysis of the deposited data

Results flagged for a closer look

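In 3 of the 63 groups of 4 libraries checked, 1 library stood apart by Dixon's test, and chance alone would mark about 1 in 20 groups. Sars had 1 library of 219.0 CPM at 50 µM (replicate 3) above the other 3, Wars had 1 vehicle library of 74.4 CPM (replicate 2) above the other 3, and Aars had 1 library of 169 CPM at 10 µM (replicate 3) below the other 3. Sars, Wars and Aars kept an adjusted p under 0.05 at 50 µM against vehicle without any of the 8 libraries.

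The effect of IPA differed between the doses for 9 synthetases in the test of 50 µM against 10 µM by edgeR, each with an adjusted p under 0.05. The log2 fold changes from 10 to 50 µM were 0.37 for Aars, 0.41 for Cars, 0.37 for Gars, 0.26 for Mars, 0.39 for Sars, 0.42 for Wars, 0.31 for Yars, 0.26 for Tars2 and 0.46 for Vars2.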

How the results depend on the processing

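The count of cytosolic synthetases called at 50 µM against vehicle was 7 under DESeq2, limma-voom, DESeq2 size factors, both other filters, an offset for exon length, the fit of all 12 libraries and the replicate block. It was 6 when Tarsl2 was moved and Gars and Kars left out, Gars being 1 of the 7. The count was 5 without vehicle replicate 3 or 50 µM replicate 4. It was 6 without vehicle replicates 1 or 2 or 50 µM replicate 2, and 7 in the other fits without 1 library. The 1 mitochondrial call at 50 µM against vehicle became 0 under limma-voom, DESeq2 size factors, no filter, all 12 libraries and the replicate block, and was 0 to 1 across fits without 1 library. Against 10 µM, mitochondrial calls were 1 with all 12 libraries and 0 to 2 without 1 library, cytosolic calls 6 to 11, and the mitochondrial median -0.000786 to 0.108. The cause of these changes was not tested.

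Replicate numbers did not pair the libraries: deviations of same-numbered libraries correlated at -0.242 to 0.142. The replicate block changed no count other than the mitochondrial one above.

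Among the 17 genes followed across the comparisons, values near 0 turned in sign, none of them called. Mars2 at 50 µM against vehicle was -0.00211 (DESeq2), -0.00215 (DESeq2 size factors), -0.00431 (no filter), -0.00256 (all 12 libraries) and -0.000955 (replicate block), and Wars2 at 10 µM was 0.00608 (limma-voom), 0.00199 (10 counts in every library) and 0.0133 (length offset). Without 1 library, log2 fold changes at 10 µM ranged from -0.011 to 0.0944 for Gars, -0.0499 to 0.0918 for Hars2, -0.0245 to 0.0662 for Mars, -0.119 to 0.014 for Mars2, -0.0485 to 0.0119 for Nars, -0.0981 to 0.0769 for Wars2 and -0.0643 to 0.00949 for Yars. At 50 µM against vehicle they ranged from -0.00414 to 0.0712 for Aars2, -0.0743 to 0.0702 for Mars2, -0.164 to 0.0426 for Sars2 and -0.098 to 0.0145 for Wars2, and between the doses from -0.00986 to 0.138 for Mars2, -0.105 to 0.101 for Sars2 and -0.115 to 0.0622 for Wars2. Apart from the fits without 1 library, 888 values were recomputed for the 37 genes, of which 856 kept direction and call, 6 lost a call, 4 gained one (Nars between the doses) and 22 turned in sign, these uncalled and within 0.021 of 0. Counts of a gene in a library ran from 92 (Wars2) to 11823 (Lars2), and how depth limits the calls of each gene was not tested.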
